A study of Mus musculus with 6 samples.

Results

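Tes, Plppr3, Tmsb10, Fscn1, Fblim1 and Marcksl1, 6 genes of the actin cytoskeleton and cell adhesion, were followed in mouse epidermis that lacked Sox4, Sox11 or both. They were chosen by their lower level after Sox4 loss on these arrays, or as actin-related targets that the study named, partly from the double knockout on the same arrays. The study kept its targets for a change in the double knockout and not in a single one, so for Tmsb10, Fscn1, Fblim1 and Marcksl1 all 3 genotypes entered the choice. Their values are therefore a description without a test, and so are those of Tes and Plppr3 in Sox4 cKO and dcKO. The 6 genes, of 21368 genes with a named probe, were measured by 7 probes of 55681 on the array.

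Epidermis of embryonic day 16 embryos was compared on 6 Agilent arrays in 2 colours, each hybridised with RNA of a knockout and of its wild-type littermates in opposite dyes. Sox4 cKO, Sox11 cKO and dcKO (Sox4 and Sox11 both deleted) had 2 arrays each, labelled as biological replicates, and the dyes were swapped between replicates 1 and 2. The labels give the strain as 129SvEx:C57BL/6. According to the methods, floxed alleles (fl/fl) on that mixed background were removed by Krt14-Cre, brought in from FVB/N mice, which acts in cells that use the keratin 14 promoter, so cells of other lineages in the peeled tissue lie outside its reach. The founding line also carried a Sox12 deletion, and neither the Sox12 genotype nor the second Sox gene's alleles in single knockouts are given for these embryos in the sources used here. Whether wild-type RNA was shared between arrays, or RNA of several embryos was pooled, is also not given.

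SOX4 and SOX11 are closely related transcription factors of the SoxC group that are active in embryonic and progenitor cells. Actin filaments drive the shape, protrusion and movement of keratinocytes, and focal adhesions tie these filaments to the matrix through integrins. Of the 6 genes, Fscn1 encodes fascin, which packs filaments into the parallel bundles of filopodia. Marcksl1 encodes a membrane-associated protein that binds and cross-links actin, and Tmsb10 encodes a thymosin that holds actin monomers. Tes (testin) and Fblim1 (migfilin) encode LIM domain proteins of focal adhesions and cell contacts. Plppr3 encodes a membrane protein of the lipid phosphatase-related family, known from neurite branching.

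The start regions of these genes are shown because SOX proteins bind short DNA motifs, and a reader can see where the letters occur. They are RefSeq promoter windows on GRCm38.p6, each 250 bases before to 50 after a listed start. The 6 genes had 9 windows in all: 3 for Tmsb10, 2 for Fblim1 and 1 for each of the others. A search for ACAAAG or ACAATG on both strands found a match in 5 of the 9 windows, and in 28.6% of all 32851 promoter windows. By gene, 5 of the 6 had a match, with several windows each for Tmsb10 and Fblim1. A share by gene was not computed. Marcksl1 had none. A match is a description of these letters and not a binding site.

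The matches upstream of a start lay in Plppr3 (beginning at −124, counted from 0 at the start), in the first of the Tmsb10 windows (−166) and in the second Fblim1 window (−27). Each line gives the 250 bases before the start, 5′ to 3′ on the gene's strand, with the match in capitals. Marcksl1 is printed for comparison.
Plppr3, chr10:79874635-79874884, minus strand: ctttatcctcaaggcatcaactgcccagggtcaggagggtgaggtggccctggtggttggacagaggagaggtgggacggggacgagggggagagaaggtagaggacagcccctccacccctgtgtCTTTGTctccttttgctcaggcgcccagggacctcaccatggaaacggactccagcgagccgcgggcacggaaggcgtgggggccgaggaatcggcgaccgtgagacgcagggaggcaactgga
Tmsb10, chr6:72958749-72958998, minus strand: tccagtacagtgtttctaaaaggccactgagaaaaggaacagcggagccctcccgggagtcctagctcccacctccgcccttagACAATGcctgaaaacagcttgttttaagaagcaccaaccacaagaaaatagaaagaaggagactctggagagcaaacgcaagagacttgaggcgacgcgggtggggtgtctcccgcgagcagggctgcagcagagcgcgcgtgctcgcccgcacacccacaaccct
Fblim1, chr4:141599999-141600248, minus strand: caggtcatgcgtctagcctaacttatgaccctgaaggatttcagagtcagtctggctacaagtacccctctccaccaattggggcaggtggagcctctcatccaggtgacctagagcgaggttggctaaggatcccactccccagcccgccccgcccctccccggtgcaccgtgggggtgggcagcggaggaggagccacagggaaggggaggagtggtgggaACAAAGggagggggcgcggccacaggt
Marcksl1, chr4:129513331-129513580, plus strand: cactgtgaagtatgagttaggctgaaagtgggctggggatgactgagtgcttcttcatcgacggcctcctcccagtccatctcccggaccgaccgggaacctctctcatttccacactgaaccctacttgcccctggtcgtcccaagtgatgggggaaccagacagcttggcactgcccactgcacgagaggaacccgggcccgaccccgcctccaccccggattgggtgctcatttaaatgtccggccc

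For Tes and Fscn1, 30 bases around 1 match near the start are shown, again with that match in capitals. It began at 2 in Tes and at −3 in Fscn1, and not every match in the Fscn1 window is shown.
Tes, chr6:17065139-17065168, plus strand: ctgccagggcctCTTTGTtccaggtcccag
Fscn1, chr5:142960340-142960369, plus strand: ccgccgggctggCTTTGTggagaactgcag

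The deleted genes were examined first. Of 2 Sox4 probes, A_55_P2131899 was well above background in all wild-type samples of Sox4 cKO and dcKO and in neither knockout sample of either. The knockout signal in Sox4 cKO was at least 3.05-fold under wild type, and that in dcKO at least 3-fold, taking the wild-type mean over the knockout mean, where a knockout signal under the lowest one well above background was set to that one. The brighter Sox4 probe differed less, with log2(knockout/wild type) of −0.42 ± 0.40 (SD, n = 2) in Sox4 cKO and −0.82 ± 0.18 in dcKO. Both Sox11 probes were near background. The brighter was well above it in 1 of 2 wild-type samples of Sox11 cKO, so loss of Sox11 could not be checked from these probes. All 7 basal epidermis markers, Krt5 and Krt14 among them, were well above background in all 6 wild-type samples.

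Each of the 6 genes was lower in Sox4 cKO than in wild type on both arrays, against 23% of all genes. In dcKO all 6 were again lower on both arrays, against 27.8% of all genes. In Sox11 cKO 3 of the 6 were lower on both, against 22.2%. The choice of the genes bears on all of these counts. On the log2 scale the 6 genes had a median of −0.997 without Sox4, −0.14 without Sox11 and −1.24 without both, and all 21368 genes had medians of 0.002, 0.001 and −0.006. In RNA from whole tissue, fewer cells of a type and less RNA per cell cannot be told apart.

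**Figure D1:**
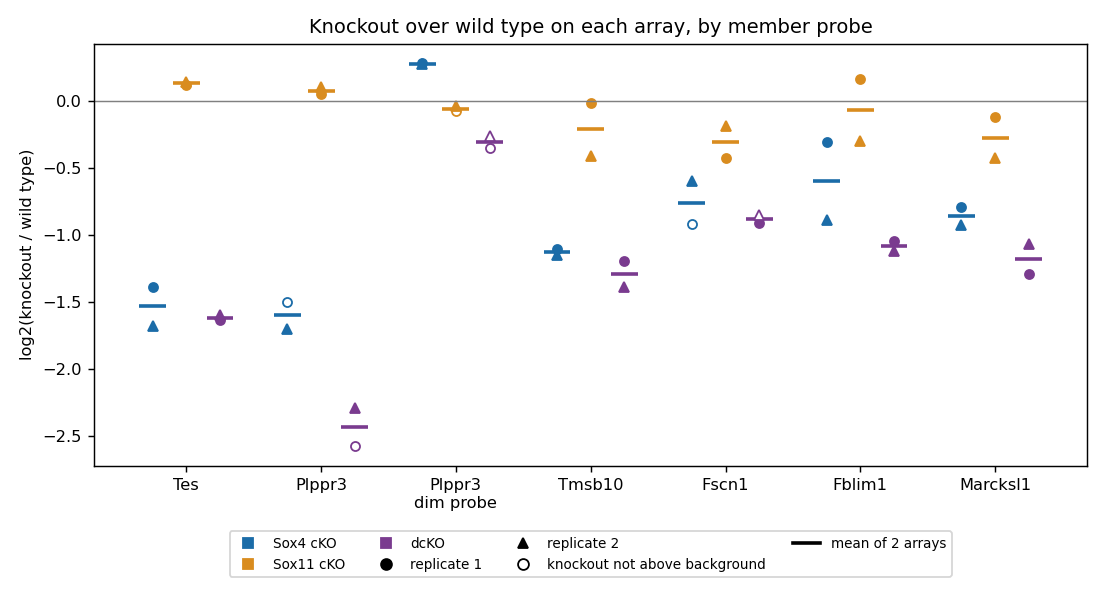
log2(knockout/wild type) of every probe of the 6 genes (vertical axis) on each array, with circles for replicate 1, triangles for replicate 2, bars for the mean of 2 arrays and colours for the genotype. Open symbols mark a knockout channel not well above background. Sox4 cKO and dcKO lay below 0 for every gene, with the dim Plppr3 probe at 0.27 in Sox4 cKO as the exception, and Sox11 cKO lay between −0.43 and 0.16.

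Tes, the focal adhesion protein, was the most even of the 6 in dcKO. Its log2(knockout/wild type) was −1.39 and −1.68 on the Sox4 cKO arrays, −1.64 and −1.60 on the dcKO arrays, and 0.12 and 0.14 on the Sox11 cKO arrays. Both genotypes without Sox4 overlapped each other and lay far below Sox11 cKO. The means, −1.53 ± 0.21 (SD, n = 2) in Sox4 cKO and −1.62 ± 0.03 in dcKO, put Tes at 34.6% and 32.5% of its wild-type signal. Ordered from the lowest value by their brightest probe, Tes was number 4 of all genes in Sox4 cKO and number 27 in dcKO. As Tes was chosen for its lower level after Sox4 loss on these arrays, the ranks partly repeat the choice. The wild-type channel of Tes stood between 8.09 and 8.67 (log2 level) over the 6 arrays, and the knockout channel between 6.70 and 6.99 where Sox4 was missing, so no Sox4-deficient sample reached any wild-type sample.

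Plppr3, the neurite-associated membrane protein, was lower relative to wild type in dcKO than in Sox4 cKO. Its bright probe, A_55_P2060991, gave −1.50 and −1.70 in Sox4 cKO, −2.58 and −2.29 in dcKO, and 0.05 and 0.10 in Sox11 cKO. The dcKO arrays lay below both Sox4 cKO arrays, and the Sox11 cKO arrays were close to 0. The means of −1.60 ± 0.14 and −2.44 ± 0.20 correspond to 33% and 18.5% of wild type. The knockout channel of this probe was well above background on only 1 of 2 arrays in each of these genotypes, so the size of the difference depended on how background was removed. A Feature Extraction log ratio gave −2.95 in Sox4 cKO and −3.66 in dcKO, and an offset of 50 gave −1.12 and −1.75.

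The second Plppr3 probe, A_55_P2117721, did not follow the first. It gave 0.28 and 0.27 in Sox4 cKO, −0.08 and −0.04 in Sox11 cKO, and −0.35 and −0.26 in dcKO. This probe was near background: in Sox4 cKO it was well above background in neither wild-type sample, and in dcKO in neither knockout sample. The statements on Plppr3 therefore rest on 1 probe.

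Tmsb10, the actin monomer-binding thymosin, was lower by nearly equal amounts on both Sox4 cKO arrays. It gave −1.11 and −1.15 in Sox4 cKO, −1.20 and −1.39 in dcKO, and −0.02 and −0.41 in Sox11 cKO. The Sox4-deficient arrays all lay below the Sox11 cKO arrays, which differed from each other more than the Sox4 cKO pair did. Tmsb10 was at 45.7% of wild type in Sox4 cKO and 40.8% in dcKO. A further probe, A_55_P2168990, has no symbol through RefSeq and was named Tmsb10 in the study's own probe table. Its means were −1.12 (Sox4 cKO), −0.16 (Sox11 cKO) and −1.27 (dcKO), close to those of the named probe.

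Marcksl1, the actin cross-linker at the membrane, gave −0.79 and −0.93 in Sox4 cKO and −1.29 and −1.07 in dcKO. In Sox11 cKO it gave −0.12 and −0.43. The 3 genotypes did not overlap, with dcKO lowest and Sox11 cKO highest. The means were −0.86 ± 0.10 in Sox4 cKO (55% of wild type) and −1.18 ± 0.16 in dcKO (44.2%).

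Fscn1, the filopodial bundler, was dim. Its wild-type level was between 6.21 and 6.93 (log2) and well above background in all 6 samples, while the knockout channel was above it on 1 of 2 arrays in Sox4 cKO and in dcKO. The values were −0.92 and −0.60 in Sox4 cKO, −0.91 and −0.85 in dcKO, and −0.43 and −0.19 in Sox11 cKO. Sox4 cKO and dcKO overlapped, and all 6 arrays were below 0. With a signal this near background the size depended on the correction, from −0.48 (offset of 50) to −1.52 (Feature Extraction log ratio) in Sox4 cKO and from −0.54 to −1.66 in dcKO.

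Fblim1, the filamin-binding adaptor of focal adhesions, differed most of the 6 between replicates in both single knockouts. It gave −0.31 and −0.89 in Sox4 cKO, −1.05 and −1.12 in dcKO, and 0.16 and −0.30 in Sox11 cKO. The dcKO arrays lay below both Sox4 cKO arrays, while the lower Sox11 cKO array lay next to the higher Sox4 cKO array. The mean in Sox4 cKO, −0.60 ± 0.41, was the smallest difference of the 6, and that in dcKO, −1.09 ± 0.05, left 47.1% of wild type. The wild-type level on Sox4 cKO replicate 1 was the lowest of 6, at 5.97 against up to 7.03.

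**Figure D2:**
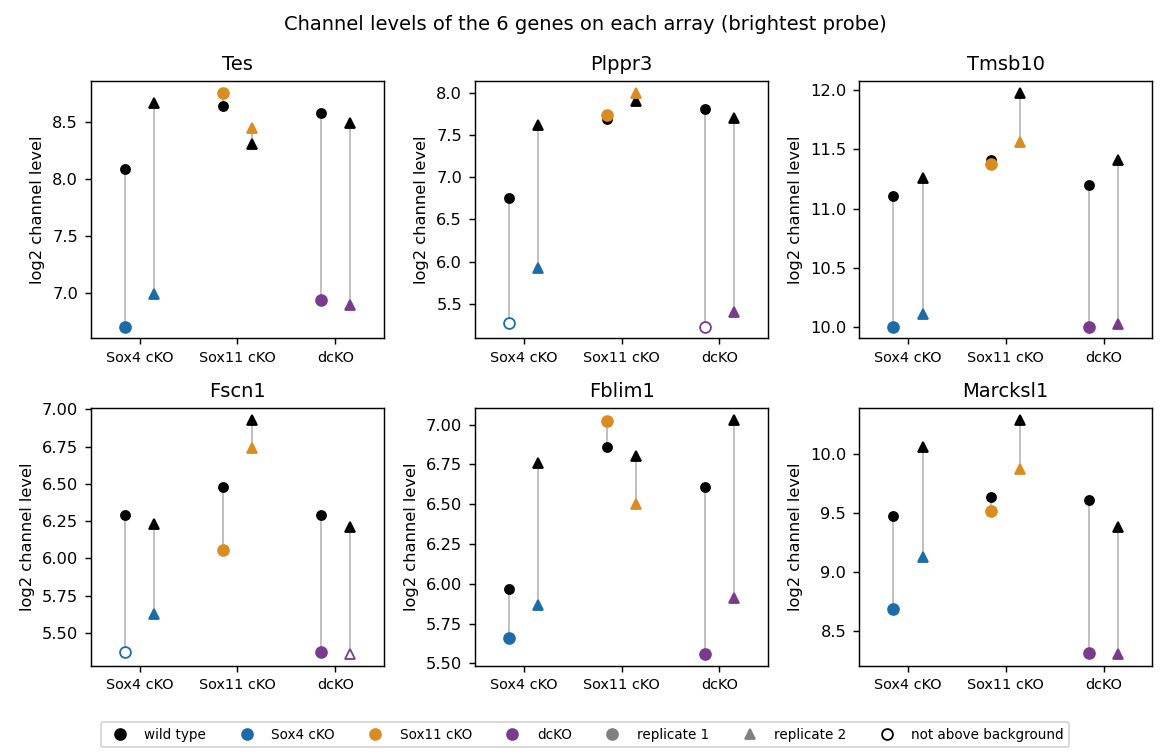
log2 channel levels (vertical axis, 1 scale per panel) of the brightest probe of each gene, after loess and between-array scaling, with wild type in black, the knockout in colour, and a grey line joining the channels of an array. Open symbols are not well above background. For each gene every Sox4 cKO and dcKO sample lay below all 6 wild-type samples, for Fblim1 by as little as 5.91 against 5.97.

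Between genotypes, all 6 genes were lower in Sox4 cKO than in Sox11 cKO with no overlap of the arrays, as were 13.9% of all genes. All 6 were also lower in dcKO than in Sox11 cKO without overlap, against 16.3% of all genes. Below Sox4 cKO, dcKO had 4 of the 6 without overlap (Plppr3, Tmsb10, Fblim1 and Marcksl1), against 15.4% of all genes, and the choice of the genes fixed part of these counts. The mean log2(knockout/wild type) of dcKO minus that of Sox4 cKO was −0.84 for Plppr3, −0.49 for Fblim1 and −0.31 for Marcksl1. It was −0.16 for Tmsb10, −0.12 for Fscn1 and −0.09 for Tes, and for Tes and Fscn1 the arrays overlapped. These ratios also carry the wild-type channel. Mean knockout levels in Sox4 cKO and dcKO were 5.59 and 5.32 for Plppr3 (near background), 5.76 and 5.73 for Fblim1. They were 8.91 and 8.32 for Marcksl1 and 10.05 and 10.01 for Tmsb10. The wild-type means beside them were 7.19 and 7.75, 6.37 and 6.82, 9.77 and 9.49, and 11.18 and 11.31.

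In Sox11 cKO none of the 7 probes passed an adjusted p of 0.05 in limma, and none of the 55680 probes tested did (0%), so nothing is read from the first count. For the study's own targets a lack of change in the single knockouts was also part of the choice. Without adjustment, 1 of the 7 probes (Fscn1) was under 0.05, beside 3922 of the 55680 probes tested. As the choice bears on Fscn1, nothing is read from this count either. Tes and Plppr3 were chosen as lower after Sox4 loss, which Sox4 cKO and dcKO share and Sox11 cKO does not. The log2 fold change in Sox11 cKO was 0.13 for Tes (95% interval −0.17 to 0.44, adjusted p = 0.878 in limma) and 0.07 for the bright Plppr3 probe (−0.24 to 0.39, adjusted p = 0.948). The spread behind these intervals was estimated over all 6 arrays. Those include the arrays that chose both genes, so the intervals are not fully independent of the choice.

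As a description, the mean in Sox11 cKO was −0.31 ± 0.17 (SD, n = 2) for Fscn1, −0.27 ± 0.22 for Marcksl1, −0.22 ± 0.28 for Tmsb10 and −0.07 ± 0.33 for Fblim1. For Fscn1, Marcksl1 and Tmsb10 both arrays were below 0, and for Fblim1 they had opposite signs. A p that misses the threshold does not show that the level was unchanged.

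To see whether the wider actin and adhesion machinery moved, 82 genes in 4 lists were tested in each genotype by their brightest probe. The lists were drawn up with earlier results of these data known, so their calls are not fully independent of these arrays. In Sox4 cKO none of the 82 passed in limma, against 2 of 21368 genes lower (0.00936%, or 0.00539% of probes) and 0 higher. These 2 genes were Tes and Plppr3, whose calls the choice used. In Sox11 cKO none passed, as for all genes (0%). At an unadjusted p under 0.05 in limma there were 5 of the 82 in Sox4 cKO and 3 in Sox11 cKO. Of all 21368 genes 1371 and 1599 were under it, so nothing is read from these counts. The same unadjusted count in dcKO was 19 of the 82, beside 2763 of all 21368 genes.

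In dcKO 4 of the 82 were lower and 1 higher at an adjusted p under 0.05. Over all genes 0.604% were lower and 0.973% higher, and over all probes 0.307% and 0.521%. The 82 genes had a median of −0.04 there, beside −0.01 for Sox4 cKO and −0.07 for Sox11 cKO. The 5 dcKO calls were Tmsb4x, Evl, Pfn2, Tns1 and Plpp1. None of them passed without dcKO replicate 1 or with the Feature Extraction log ratio, 1 (Pfn2) passed without dcKO replicate 2, and 3 (Evl, Pfn2 and Plpp1) passed without the replicate block.

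Tmsb4x, the abundant thymosin related to Tmsb10, fell by 0.72 in dcKO (−0.73 and −0.71 on the arrays, adjusted p = 0.0444 in limma). It gave −0.33 in Sox4 cKO and −0.18 in Sox11 cKO, in which it did not pass. The dcKO call was lost when any 1 of the 6 arrays was left out, and with median centring, without the replicate block, with the genotype's own arrays and with the Feature Extraction log ratio. Evl, an Ena/VASP protein that extends filaments in filopodia, fell by 1.08 in dcKO (adjusted p = 0.00792) and gave −0.84 in Sox4 cKO. Evl is also on the study's list of targets, so it is not independent of these arrays.

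Pfn2, a profilin that delivers actin monomers, fell by 1.17 in dcKO (adjusted p = 0.0113 in limma) and gave 0.08 in Sox4 cKO. Tns1, tensin at focal adhesions, fell by 0.78 in dcKO (adjusted p = 0.0353) and gave −0.50 in Sox4 cKO. Plpp1, a lipid phosphate phosphatase related to Plppr3, rose by 1.25 in dcKO (0.96 and 1.54, adjusted p = 0.0125) and gave −0.03 in Sox4 cKO.

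By list, the 20 focal adhesion genes had the lowest median of the 4 lists in dcKO, −0.27, and a median of −0.00 in Sox4 cKO. In dcKO 14 of the 20 were lower on both arrays, against 27.8% of all genes. Of 8 dermal fibroblast markers, 6 were also lower on both dcKO arrays and 2 were higher (medians of −1.51 and −1.51). The part of these markers in the list's values was not tested. The 20 bundling and filopodia genes had a median of 0.00 in dcKO, the 18 monomer and turnover genes 0.03, and the 24 relatives −0.09. Cytoplasmic actin did not pass in any genotype. The Actb arrays had opposite signs in each (0.13 and −0.31 in Sox4 cKO, 0.42 and −0.09 in Sox11 cKO, 0.40 and −0.40 in dcKO), and Actg1 gave means of −0.06, 0.03 and −0.06. These 2 were named after their values were seen.

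Of the 24 relatives, none but Tmsb4x and Plpp1 passed in any genotype. Marcks, the paralog of Marcksl1, gave −0.14 in Sox4 cKO and −0.29 in dcKO. Prickle1, a LIM protein like testin, gave −0.08 and −0.25, and the focal adhesion LIM proteins Zyx and Lpp gave −0.14 and −0.27, and −0.11 and 0.03. Fscn2, the retinal fascin, was well above background in no sample, and Plppr1 and Plppr2 were so in 4 and 2 of the 6 wild-type samples.

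**Figure D3:**
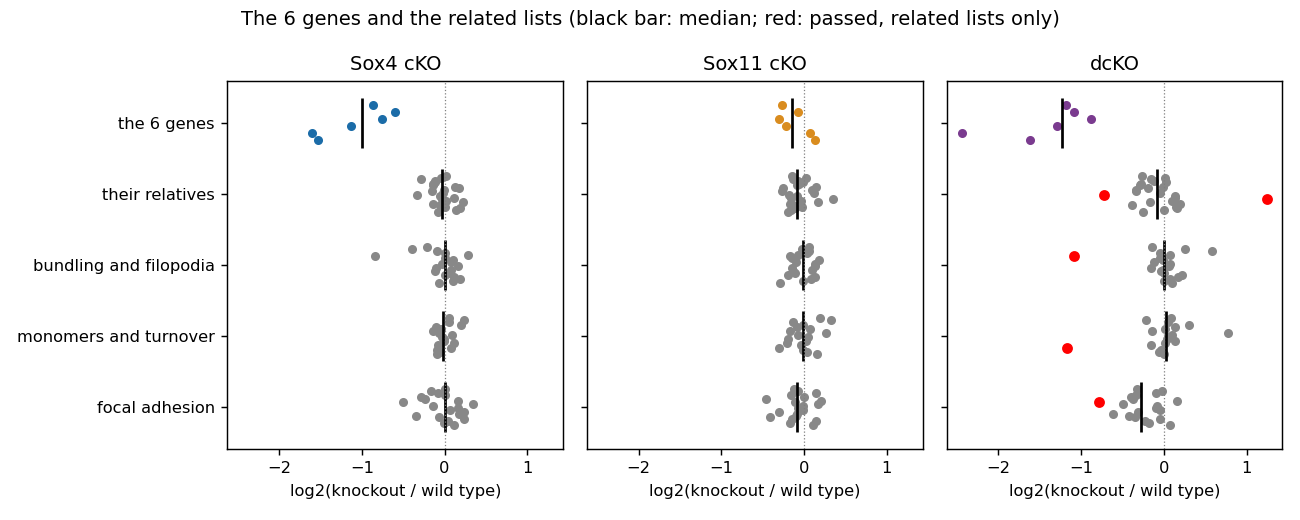
log2(knockout/wild type) (horizontal axis, mean of the fit) of the 6 genes and of each gene in the 4 related lists, 1 panel per genotype, with a black bar at each median. Red points are related genes with an adjusted p under 0.05, which occur in dcKO only (4 lower, 1 higher); the 6 genes are drawn without calls.

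The genes whose 6 array values lay nearest to each member were sought among 10747 genes that were well above background in all wild-type samples, by root mean square difference in log2 units. Nearest to Tes were Cd1d1 (0.24), Mex3a (0.30) and Gm4907 (0.32). Nearest to Plppr3 were Tes (0.47), Cd1d1 (0.58) and Mex3a (0.60), all farther off than the nearest genes of the other members. Nearest to Tmsb10 were Pxdn (0.12), Wdr86 (0.13) and Ttyh3 (0.15), and nearest to Marcksl1 were Pxdn (0.14), Cmtm3 (0.16) and F2r (0.16).

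For Fscn1 the nearest were Podxl2 (0.11), Rbms3 (0.11) and Mmp11 (0.12), and for Fblim1 Mfge8 (0.14), Traf4 (0.15) and Klhl22 (0.17). Pxdn, near both Tmsb10 and Marcksl1, had means of −1.07 (Sox4 cKO), −0.25 (Sox11 cKO) and −1.18 (dcKO). Pxdn and Klhl22 are on the study's target list. This likeness is over 6 arrays that share the dye design.

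Markers of other cell types differed between arrays and stand beside the 6 genes. The 8 dermal fibroblast markers, collagens among them, had a median log2(knockout/wild type) of −2.83 on Sox4 cKO replicate 1 and 0.77 on replicate 2. The 6 genes had medians of −1.02 and −1.04 on the same arrays. On replicate 2 none of the 8 fibroblast markers was lower, and all 6 genes were. The part of fibroblast content in the Sox4 cKO values was not tested.

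In dcKO 6 of the 8 fibroblast markers were lower on both arrays, and the other 2, Dcn and Postn, were higher on both. The medians of the 8 were −1.51 and −1.51, beside medians of −1.24 and −1.25 for the 6 genes. The part of the fibroblast markers in the dcKO values was not tested. In Sox11 cKO the fibroblast medians were 0.81 and −0.55, and those of the 6 genes 0.01 and −0.25. The summed linear signal of the 8 markers was 11300 to 12500 in Sox4 cKO against 8600 to 23000 in its wild type, 7450 to 7930 against 6930 to 8270 for Sox11 cKO, and 8640 to 10100 against 9300 to 13100 for dcKO. Dcn had the highest median wild-type level of the 8 (12.47, log2), and a sum gives bright genes more weight. Of the defining markers, Pdgfra was well above background in 3 wild-type samples and in no knockout sample.

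Skeletal muscle markers gave −2.06 and 0.08 in Sox4 cKO, 0.32 and 0.07 in Sox11 cKO, and −0.21 and −0.93 in dcKO. Of the 8 muscle markers only 1 was well above background in all 6 wild-type samples. The same held for 1 of 6 endothelium and 1 of 5 immune markers, so medians of these lists rest largely on signal near background. Periderm markers were higher in Sox4 cKO (0.68 and 0.46) and lower in Sox11 cKO (−1.58 and −0.58) and dcKO (−1.02 and −0.71). In dcKO they were thus lower, as the 6 genes were, and their part in the dcKO values was not tested. Basal markers had medians between −0.16 and 0.28 over the 6 arrays, and suprabasal markers between −0.01 and 1.16. Medians lay between −0.25 and −0.01 for endothelium, −0.28 and 0.41 for immune cells, −0.39 and 0.44 for melanocytes, −0.14 and 0.14 for nerve and Schwann cells, −0.46 and 1.36 for red blood cells, and −0.33 and 0.11 for hair follicle buds.

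**Figure D4:**
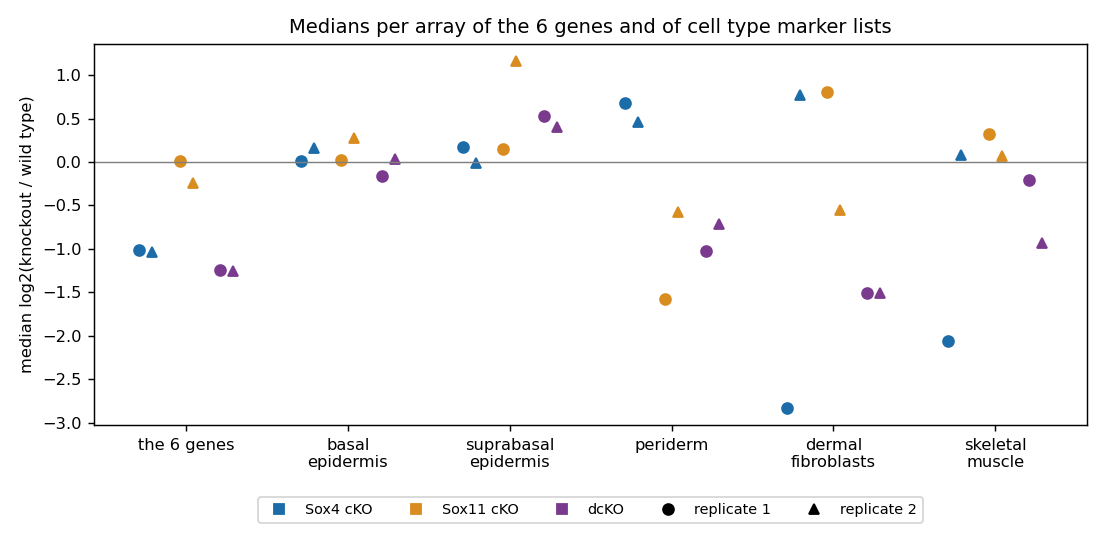
Median log2(knockout/wild type) per array (vertical axis) of the 6 genes and of 5 marker lists, with circles for replicate 1, triangles for replicate 2 and colours for the genotype. The dermal fibroblast markers stood at −2.83 and 0.77 on the Sox4 cKO arrays, where the 6 genes stood at −1.02 and −1.04.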

How the data were processed

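Spot intensities from Agilent Feature Extraction 11.0.1.1 were deposited by the authors as median pixel brightness per channel with local background, not yet normalized. That software's own log10 ratio of Cy5 over Cy3 was deposited beside them, and the authors' series table holds log2(knockout/wild type) per probe, made per the study's methods with normexp (offset 16) and loess in limma. Values computed here matched that table to within 0.0038 for every probe of the 6 genes.

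Signals were corrected with normexp (offset 16), normalized by loess, stripped of control and outlier spots and averaged per probe in limma 3.58.1 (R 4.3.3). A linear model over all 6 arrays had 1 coefficient per genotype and 1 for the dye, with 2 residual and 6.63 prior degrees of freedom and two-sided tests. P-values were adjusted by Benjamini-Hochberg over all probes, and a call needed an adjusted p under 0.05. The dye coefficient is also the replicate block, as replicate 1 always had the knockout in Cy5. Replicate deviations correlated at 0.258, 0.306 and 0.328 between genotypes. As dye and replicate number coincide, a shared dye effect and a pairing by number cannot be told apart here.

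Between 37.7% and 42.3% of probes were well above background per channel, no spot was saturated, and 183 to 233 spots per array were left out as outliers. The number of arrays limits the precision. Of 55681 probes, 28331 received a symbol through RefSeq accessions (GRCm38.p6), and a gene with several probes is given by the brightest unless each is named. A fold is a lower bound where every array of a group missed that mark in a channel.

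Members and lists were chosen with earlier results of these data known. Named were every member probe, related genes that passed in any genotype, nearest relatives, the 3 genes with the nearest profile to each member, both Sox genes and marker lists. The study's other targets were given as a list. Fits were tested on simulated data. A stretch of the Fscn1 window is not reported here. Alternatives were the offset, no background subtraction, the Feature Extraction log ratio, the series table, median centring, no replicate block, a genotype's own arrays, a filter on dim probes, the mean over a gene's probes, and leaving out each array.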

Additional observations from a re-analysis of the deposited data

Results flagged for a closer look

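Several values stood out because every array of one genotype moved one way and every array of another the opposite way. Because these arrays chose the genes, the differences were not tested. For Tes, Sox11 cKO minus Sox4 cKO was 1.67 and dcKO minus Sox11 cKO was −1.76 on the log2 scale. For the bright Plppr3 probe the same differences were 1.67 and −2.51. For the dim Plppr3 probe, Sox11 cKO minus Sox4 cKO was −0.33, of opposite sign to the bright probe, and dcKO minus Sox4 cKO was −0.58.

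A pair of wild-type levels lay apart from the rest of the 6 samples by Dixon's criterion, which flags about 1 group in 20 by chance. The bright Plppr3 probe was lowest in the wild type of Sox4 cKO replicate 1, at a log2 level of 6.76. Tmsb10 was highest in the wild type of Sox11 cKO replicate 2, at 11.98.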

How the results depend on the processing

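All 6 genes stayed lower in Sox4 cKO and in dcKO by their brightest probe under each of the 14 alternatives run per probe. The medians moved most with the Feature Extraction log ratio, which changes background and normalization together. The median of the 6 in Sox4 cKO (−0.997) became −0.96 with an offset of 50, −0.96 with no background subtraction, −1.34 with the Feature Extraction log ratio, −0.85 with median centring and −0.81 with the mean over all probes of a gene. In dcKO (−1.24) the first 4 gave −1.18, −1.19, −1.77 and −1.28. Leaving out 1 array gave medians from −1.05 to −0.96 in Sox4 cKO and from −1.36 to −1.13 in dcKO. In Sox11 cKO, Plppr3 turned to −0.04 with median centring and Fblim1 ranged from −0.14 to 0.00 (without Sox11 cKO replicate 1 and 2) when 1 array was left out. No member probe passed in Sox11 cKO under any alternative. In the main fit none of the 55680 probes tested passed either, and the choice bears on the members, so nothing is read from this. Of the related genes, 1 (Evl) passed in Sox4 cKO with an offset of 50 and with no background subtraction. In dcKO 8 passed under each of these, 3 with no replicate block and 3 with the genotype's own arrays, 0 with the Feature Extraction log ratio, and from 0 (without dcKO replicate 1) to 5 when 1 array was left out. Leaving out the replicate block changed no other call among the related genes and member probes. The cause was not tested.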
